A study of Mus musculus with 13 samples.

Results

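Twist1, Prrx1 and Col1a1 are 3 genes that fibroblasts are commonly recognised by, and the CUT&RUN peaks around them are described here. The peaks were taken from fixed windows on mouse build GRCm39, chr12:33957000-34060000 for Twist1, chr1:163022000-163192000 for Prrx1 and chr11:94777000-94894000 for Col1a1, which are set by position and not by any peak value. The 12 HA and IgG peak lists together gave 71864 regions over the genome, where a region is the union of intervals that share at least 1 bp, and 29 of these lay in the windows. They held 53 peaks, and the H3K27me3 list added 15, which made 68 of the 178951 peaks in the 13 lists.

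In CUT&RUN, a nuclease tied to an antibody cuts out the DNA around the antibody's target. Mouse embryonic fibroblasts from a cross of Pax7-CreERT2, Rosa26-LSL-tdTomato and CAG-rtTA3 (the last a ubiquitously driven doxycycline-responsive activator) had been given a lentivirus with HA-tagged Myf6 under a doxycycline-inducible TRE promoter, and were kept for 24 h in a medium named iMPC medium. The group +Myf6+F/R/C had doxycycline at 2 µg/mL with Forskolin at 5 µM, RepSox at 5 µM and CHIR99021 at 3 µM. The group +Myf6 had doxycycline at 2 µg/mL alone, and the group no dox had neither doxycycline nor compounds, although it carried the same alleles and lentivirus. Each group had 2 libraries with an antibody to the HA tag and 2 with control IgG, and a single H3K27me3 library came from +Myf6+F/R/C cells. Positions on DNA were measured and not RNA, so neither the level of the 3 genes nor the identity of the cells could be checked, and the labels do not say whether replicates were separate cultures.

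Twist1 is a basic helix-loop-helix factor of mesenchyme that pairs with E proteins and is known to inhibit muscle-forming factors of its own class. Myf6, also called MRF4, is one of those muscle-forming factors, and it binds E-box sequences. Prrx1 is a paired-related homeobox factor of limb and other mesenchyme, and Col1a1 encodes a chain of type I collagen, the main fibrous protein that fibroblasts secrete. H3K27me3 is a histone mark laid down by Polycomb repressive complex 2, and it is typically found over the CpG-rich starts of genes that are silent in a cell.

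Depth was recovered from the lists themselves, as the mean number of fragments per 10 kb. It was 61.9 and 40.9 in the HA libraries of +Myf6+F/R/C, 42.4 and 30.6 in those of +Myf6, and 30.6 and 23.7 in those of no dox. The 6 IgG libraries held 8.25 to 22.7 fragments per 10 kb and the H3K27me3 library 54.3. Since weak peaks are called more readily in deep libraries, counts are given below at each library's own depth and again after scaling.

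The 2 promoters for which RefSeq sequence was at hand are printed because the H3K27me3 results below turn on the starts of the genes. Each runs 5′ to 3′ from 250 bases before the start to 50 bases after it, from RefSeq build GRCm38.p6, on the + strand for Twist1 and the - strand for Prrx1, and capitals mark each CpG.
Twist1: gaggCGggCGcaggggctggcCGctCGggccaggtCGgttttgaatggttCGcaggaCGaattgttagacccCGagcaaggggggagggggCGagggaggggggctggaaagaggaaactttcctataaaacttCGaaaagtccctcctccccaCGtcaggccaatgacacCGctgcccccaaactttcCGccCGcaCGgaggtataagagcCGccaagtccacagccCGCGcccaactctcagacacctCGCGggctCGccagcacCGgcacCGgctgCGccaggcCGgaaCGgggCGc
Prrx1: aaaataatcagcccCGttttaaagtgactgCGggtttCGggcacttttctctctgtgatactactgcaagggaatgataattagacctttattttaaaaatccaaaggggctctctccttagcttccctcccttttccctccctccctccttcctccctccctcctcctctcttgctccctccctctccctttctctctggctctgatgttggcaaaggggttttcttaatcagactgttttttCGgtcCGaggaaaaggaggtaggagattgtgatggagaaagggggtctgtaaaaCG
The Twist1 promoter held 27 CpG and was 66% G or C, and 15.5% of 32851 mouse promoters of this length held at least as many CpG. The Prrx1 promoter held 6 CpG at 47.7% G or C, near the median of 7 CpG over all promoters, and 56.4% held at least as many. Neither contained the E-box letters CANNTG, which read the same on both strands, whereas 72.3% of all promoters held CANNTG at least once. A match of letters is a description and not a site, and these windows are on another build than the peaks, so peaks were not laid over them base by base.

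HA peaks were found around all 3 genes after doxycycline, and each of those at Twist1 was in a single library. Most of them were at Prrx1, which also had the longest window, 170 kb against 117 kb at Col1a1 and 103 kb at Twist1. The Prrx1 window held 7 and 7 HA peaks in the +Myf6+F/R/C libraries and 6 and 8 in the +Myf6 libraries, against 2 and 0 in the no dox libraries. The Col1a1 window held 5 and 4 HA peaks in +Myf6+F/R/C and 5 and 4 in +Myf6, against 0 and 0 without doxycycline. The Twist1 window held 1 and 0 in +Myf6+F/R/C and 1 and 2 in +Myf6, against 0 and 0 in no dox. Every induced library thus had more peaks than both uninduced libraries at Prrx1 and Col1a1, whereas at Twist1 a +Myf6+F/R/C library had none. The whole lists differed in the same direction. They held 38454 and 32033 peaks in +Myf6+F/R/C and 28436 and 35181 in +Myf6, against 2179 and 4230 in no dox. Of its own list, each +Myf6+F/R/C library had 0.0338% and 0.0343% in the 3 windows, and each +Myf6 library 0.0422% and 0.0398%. In no dox these shares were 0.0918% and 0%.

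Summed over the windows, the means were 12 ± 1.41 HA peaks in +Myf6+F/R/C and 13 ± 1.41 in +Myf6, against 1 ± 1.41 in no dox (SD, n = 2 each). For single windows the exact two-sided permutation p was 0.333 for both induced groups against no dox at Prrx1 and Col1a1 and for +Myf6 at Twist1, and 1 for +Myf6+F/R/C at Twist1. With 2 libraries against 2, 0.333 is the smallest p that the exact permutation test allows, so none of these tests could pass 0.05. The differences shrank once summits were scaled down by mean pileup, which depends on both the number and the length of fragments, to the lowest library of each comparison. They came to 3 peaks instead of 11 for +Myf6+F/R/C minus no dox and to 5.5 instead of 12 for +Myf6 minus no dox. Scaled by the number of fragments alone, a choice made after seeing the data, they came to 5.5 for +Myf6+F/R/C minus no dox and to 9 for +Myf6 minus no dox.

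That scaling can be read peak by peak. Of the 50 HA peaks of induced cells in the windows, 40 would still have been called at the mean pileup of the first no dox library and 39 at its number of fragments, where 2 peaks were called. For the second no dox library, 17 would have been called at its mean pileup and 33 at its number of fragments, and 0 were. Its fragment length, taken as the width of the narrowest peak in its list, was 108 bp. In the induced HA libraries the length taken in this way was 161 to 172 bp.

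IgG gave a single peak in all 3 windows. Over the genome, the IgG lists of induced cells held 437 to 1724 peaks, against 28436 to 38454 in the HA lists. The HA libraries of induced cells had 7 ± 0.816 peaks at Prrx1 against 0 in every IgG library of the same cells, and 4.5 ± 0.577 against 0.25 ± 0.5 at Col1a1 (SD, n = 4 each). The exact two-sided permutation p was 0.0286 for Prrx1 and for Col1a1, the smallest that 4 libraries against 4 allow, and 0.214 for each after Benjamini-Hochberg adjustment over the 15 tests of single windows. With HA and IgG paired by the nuclei they shared, the exact p was 0.125 at Prrx1 and at Col1a1, the smallest that 4 pairs allow. At Twist1 the HA libraries had 1 ± 0.816 peaks against 0 in IgG, with an exact permutation p of 0.143. In no dox cells the HA libraries had 2 and 0 peaks against 0 and 0 in IgG, all in the Prrx1 window.

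In induced cells the IgG libraries were much shallower than the HA libraries, and depth moved with this comparison. Those IgG libraries held 8.25 to 19.1 fragments per 10 kb, against 30.6 to 61.9 in the HA libraries. When all 8 libraries of induced cells were scaled by mean pileup to the lowest one, the difference over the windows was 1.5 peaks instead of 12.25. It came to 1.25 at Prrx1, where the exact permutation p stayed at 0.0286, to 0.25 at Col1a1 with an exact permutation p of 1, and to 0 at Twist1. Scaled by the number of fragments alone, it came to 1.25 at Prrx1 (exact permutation p = 0.0286), 0.5 at Col1a1 (exact permutation p = 0.429) and 0 at Twist1.

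The +Myf6+F/R/C libraries and the +Myf6 libraries had the same mean number of HA peaks at Prrx1, 7 in each, and at Col1a1, 4.5 in each. At Twist1 the means were 0.5 in +Myf6+F/R/C and 1.5 in +Myf6. The exact permutation p was 1 at Prrx1 and Col1a1 and 0.667 at Twist1, and 2 libraries a group leave the size of any difference poorly bounded.

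**Figure D1:**
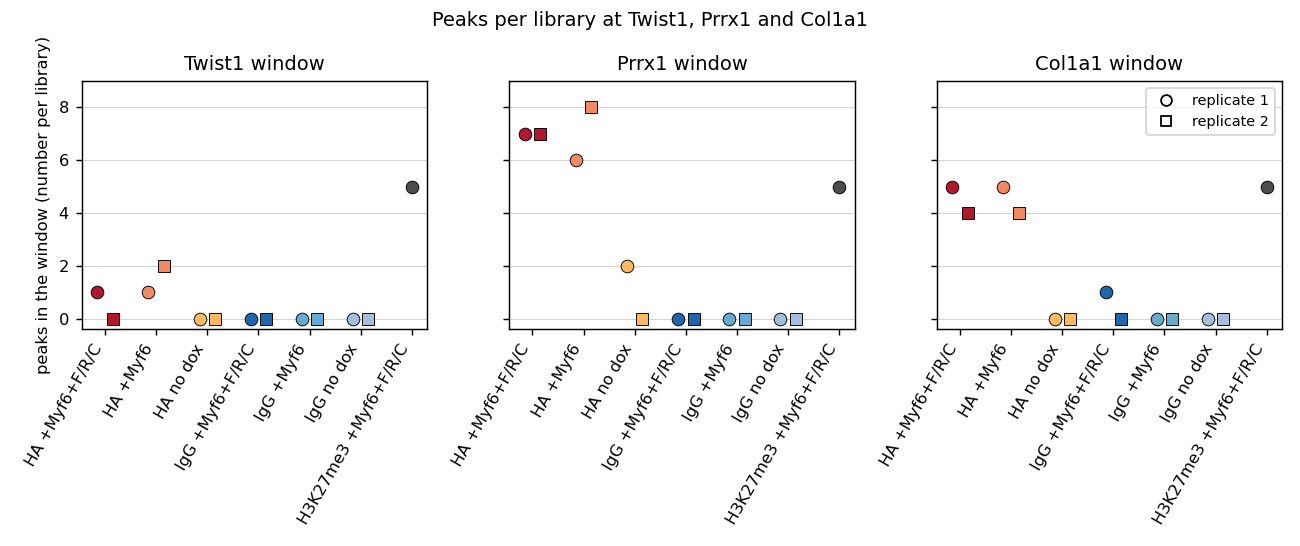
Number of peaks per library (vertical axis) in the Twist1, Prrx1 and Col1a1 windows, for the HA, IgG and H3K27me3 libraries of each group; circles are replicate 1 and squares replicate 2. HA libraries of induced cells had 6 to 8 peaks at Prrx1 and 4 or 5 at Col1a1, and the H3K27me3 library had 5 in each window.

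Most regions had a peak in a single list, though the peaks themselves were mostly in regions that at least 2 lists shared. Of the 28 regions with an HA peak of induced cells, 16 (57.1%) had one in a single induced list, against 52.6% of such regions over the genome. At least 3 of the 4 induced lists had a peak in 7 of the 28 (25%), against 27.9% over the genome. A site of a treatment is defined here as a region with peaks in both HA lists of that treatment and in none of the 8 control lists (2 HA lists of no dox and 6 IgG lists).

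By that definition 5 of the 29 regions were sites of +Myf6+F/R/C (17.2%, against 21.0% of all regions) and 4 were sites of +Myf6 (13.8%, against 17.5%). Sites of either treatment came to 7 (24.1%, against 27.8%), 3 of them at Prrx1, 4 at Col1a1 and 0 at Twist1. An HA peak in all 4 induced lists and in neither no dox list was found in 2 regions (6.90%, against 11.1%), 1 at Prrx1 and 1 at Col1a1. A peak in an uninduced HA list lay in 2 regions (6.90%, against 7.29%), and an IgG peak in 1 (3.45%, against 4.39%). All these shares are near or below those of the genome as a whole.

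Counted per stretch of DNA, the windows differed from each other. The Prrx1 window of 170 kb held 15 regions with an HA peak of induced cells, against a median of 3 in tiles of the same length laid end to end over the genome, and 3.38% of tiles held at least as many. The 117 kb of Col1a1 held 9, against a tile median of 2, and 8.49% of tiles held at least as many. The 103 kb of Twist1 held 4, against a median of 2, and 32.2% of tiles held at least as many.

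Sites ran in another order. Col1a1 had 4 sites against a tile median of 0, and 5.38% of tiles held as many or more. Prrx1 had 3 against a median of 1, and 20.4% of tiles held as many or more. Twist1 had 0, as did 59.3% of tiles of its length, where 48.8% of tiles of the Prrx1 length and 56.6% of the Col1a1 length had none. The tiles include stretches with few genes, so the windows are set here against the genome and not against other genes.

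The windows reach 50 kb beyond what is called the inner part here, which is 3 kb long at Twist1, 70 kb at Prrx1 and 17 kb at Col1a1. The RefSeq genes measure 2161, 70027 and 16819 bp, so the inner part stands for the gene body to within about 1 kb, and Prrx1 is read from its high-coordinate end. HA peaks of induced cells lay inside the gene in the Prrx1 window alone, in 6 regions, or 8.57 per 100 kb, against 9 per 100 kb in its flanks. The inner parts of Col1a1 and Twist1 held 0, against 9 and 4 regions per 100 kb of their flanks. Those inner parts are short, and at the density of the flanks few regions would fall in them.

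**Figure D2:**
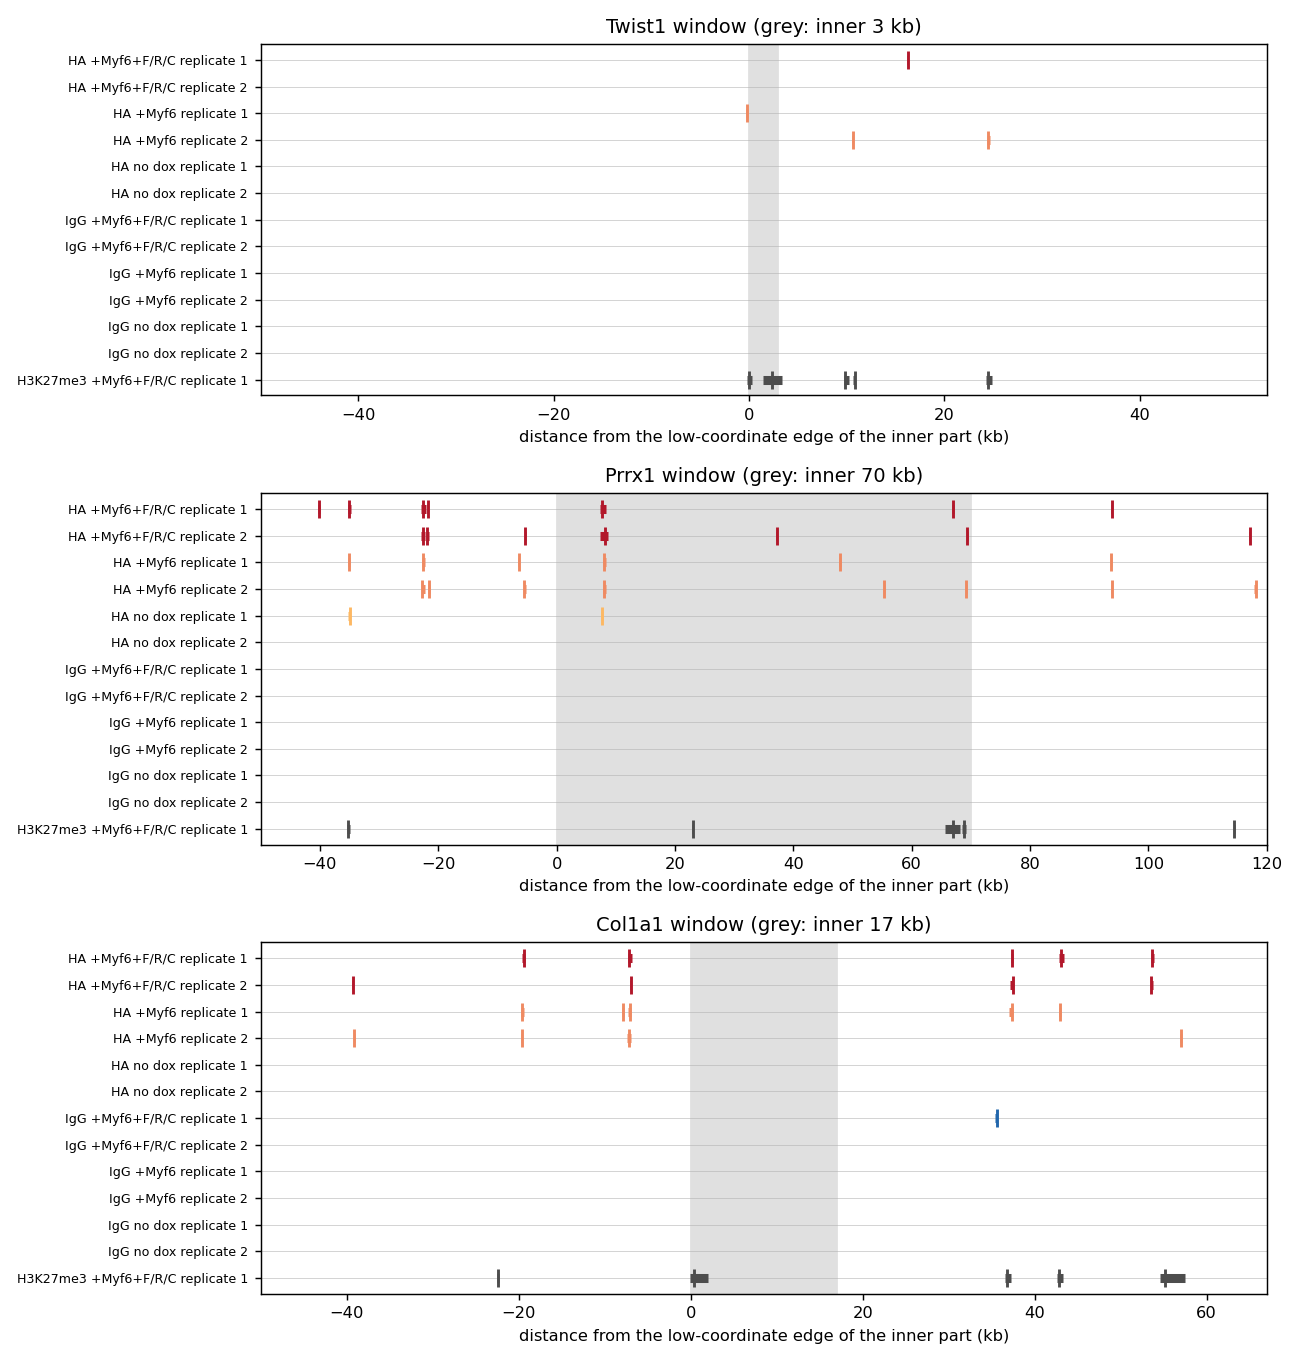
Map of every peak in the 3 windows by library, with distance from the low-coordinate edge of the inner part (grey) in kb; bars span the peak and ticks mark its summit. The Prrx1 gene body holds HA peaks of induced cells, whereas those of Col1a1 lie on both sides of the gene and those of Twist1 lie at its low edge or beyond its high edge.

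The strongest HA peak in the windows, by summit pileup, lay in 3 of the 4 induced libraries 22.5 kb beyond the low edge of Prrx1, past the end of the gene, at chr1:163049102-163049928. It was a site of both treatments. The fold over the local background, which is the authors' value for each summit, was 7.81 and 8.78 in +Myf6+F/R/C and 7.89 and 7.66 in +Myf6. The summits held 47 and 41 fragments in +Myf6+F/R/C and 21 and 18 in +Myf6, and no peak was called in either no dox library or in IgG.

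All 4 summits lay within 49 bp of each other. Relative to the mean pileup of the library, they stood at 46.3 and 58.2 times in +Myf6+F/R/C and 30.7 and 36.6 times in +Myf6. The peaks were among the strongest 1.45% and 0.593% of their lists in +Myf6+F/R/C and the strongest 5.96% and 5.14% in +Myf6, by −log10 p. Scaled to either no dox library, by mean pileup or by the number of fragments, each of the 4 summits would still have been called.

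The surroundings of this place were also dense. The 10 kb around the summit held 5.07 and 5.38 times the library mean in +Myf6+F/R/C and 2.62 and 3.01 times in +Myf6. A neighbouring region at chr1:163050105-163050579, a site of +Myf6+F/R/C, had folds of 3.26 and 3.76 with 19 and 17 fragments in +Myf6+F/R/C. Its fold was 4.06 with 9 fragments in the second +Myf6 library. Scaled to either no dox library, in either way, its summit in the first +Myf6+F/R/C library would not have been called. Its other summits would have been called, except at the mean pileup of the second no dox library.

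Inside Prrx1, 7.96 kb from its low edge, the region chr1:163079287-163080639 had a peak in all 4 induced lists and also in a no dox list. The folds were 7.14 and 5.18 in +Myf6+F/R/C and 4.5 and 4.92 in +Myf6, against 5.07 in the first no dox library. The summits held 38 and 21 fragments in +Myf6+F/R/C and 13 and 12 in +Myf6, against 8 in that no dox library. The fold without doxycycline thus lay within the range of the induced libraries, although the summit stood at 17.2 times the library mean, under the 37.4 and 29.8 times of +Myf6+F/R/C and the 19.0 and 24.4 times of +Myf6.

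The 5 summits of this region were spread over 513 bp. Those of the first +Myf6+F/R/C library and the first no dox library were 7 bp apart, at positions 163079672 and 163079665, whereas the other 3 lay at 163080178 in +Myf6+F/R/C and at 163079964 and 163080010 in +Myf6.

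The other Prrx1 region with a peak in no dox was 35.0 kb beyond the low edge, at chr1:163036778-163037200. Its folds were 5.98 in the first +Myf6+F/R/C library and 6.48 in the first +Myf6 library, against 4.57 in the first no dox library. Its summits held 20 fragments in that +Myf6+F/R/C library and 13 in that +Myf6 library, against 6 in the no dox library. The peaks were in first replicates alone, and the region met an H3K27me3 peak.

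A site of +Myf6 lay on the other side, 23.8 kb before the start of Prrx1, at chr1:163165604-163165920. Its folds were 4.63 in the first +Myf6+F/R/C library and 5.52 and 4.52 in +Myf6, with 10 fragments in +Myf6+F/R/C and 11 and 6 in +Myf6. It was called a site of +Myf6 and not of +Myf6+F/R/C because the second +Myf6+F/R/C list lacked a peak.

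At Col1a1 the place shared by all 4 induced lists was 7.09 kb before the low edge, at chr11:94819632-94820196, and it was a site of both treatments. The folds were 6.07 and 4.10 in +Myf6+F/R/C and 5.90 and 8.0 in +Myf6. The summits held 23 and 10 fragments in +Myf6+F/R/C and 18 and 20 in +Myf6, with no peak in no dox or IgG. In the second +Myf6 library this was the highest summit of the windows, above the 18 fragments of the Prrx1 site. The summits spread over 261 bp, wider than at the Prrx1 site.

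In rank this place varied more than the Prrx1 site. It was among the strongest 17.0% and 81.8% of the lists of +Myf6+F/R/C and the strongest 19.3% and 3.37% of those of +Myf6. Scaled to the second no dox library, the summit of the second +Myf6+F/R/C library would have held 3.63 fragments by mean pileup, where 6 were needed. By the number of fragments it would have held 5.78, where 7 were needed, so it would not have been called there. Scaled to the first no dox library, that summit would have been called by mean pileup. By the number of fragments it would not, at 7.49 where 8 were needed.

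A site of +Myf6 lay 19.5 kb before Col1a1, at chr11:94807250-94807772. Its fold was 3.93 in the first +Myf6+F/R/C library and 6.21 and 6.17 in +Myf6, and its summits stood at 15.8 times the library mean in +Myf6+F/R/C and at 29.3 and 32.5 times in +Myf6. On the far side of the gene, 20.3 kb beyond its high edge, chr11:94864069-94864541 was a site of +Myf6+F/R/C, with folds of 6.44 and 8.62 there and 4.87 in the first +Myf6 library. Its summits held 16 and 18 fragments in +Myf6+F/R/C and 11 in +Myf6. Of the 7 sites in the windows, this 1 met an H3K27me3 peak (and the other 6 did not), against 31.2% of sites over the genome. That H3K27me3 peak was weak, with 8 fragments at the summit and 1.34 times the library's mean density around it. In its list 90.9% of peaks were at least as strong by −log10 p.

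A region at chr11:94880495-94880843 had peaks in both +Myf6+F/R/C lists, with folds of 4.71 and 4.02 and 21 and 12 fragments, and in neither +Myf6 list. It was 1 of 29 regions with that pattern (3.45%, against 3.91% of all regions), and no region had the opposite one, which 2.24% of all regions did. The IgG peak of the windows lay at chr11:94862402-94862644 in the first IgG library of +Myf6+F/R/C, with a fold of 4.72 and 5 fragments, and no HA list had a peak there.

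Genes next to Col1a1 share its flank. In the RefSeq order of build GRCm38.p6 the protein-coding genes Sgca, which encodes the muscle protein alpha-sarcoglycan, Hils1 and Ppp1r9b lie within 50 kb beyond its high edge, the side that holds 5 of the 10 regions. To which gene a region belongs was not analysed here.

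Each HA peak at Twist1 was found in a single library. The first +Myf6+F/R/C library had 1, at chr12:34023142-34023305, with a fold of 5.46 and 10 fragments. The first +Myf6 library had 1 at chr12:34006728-34006888, with a fold of 3.41 and 8 fragments. It lay 0.192 kb before the low edge of the inner part, which marks the start of the gene only to within about 1 kb. The second +Myf6 library had 2, at chr12:34017516-34017681 with a fold of 5.32 and 11 fragments and at chr12:34031402-34031683 with a fold of 4.62 and 6 fragments.

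None of the 4 was in the strongest 10% of its list. The peak near the start of the gene ranked low, since 98.1% of the peaks of its list were at least as strong by −log10 p. The 3 peaks of the +Myf6 libraries met H3K27me3 peaks and that of +Myf6+F/R/C did not. The only protein-coding gene within 50 kb in the RefSeq order is Ferd3l, another basic helix-loop-helix gene, on the low side. No HA peak lay on that side beyond the one near the start of Twist1.

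Over the 3 windows, 7 of the 50 HA peaks of induced cells (14%) were in the strongest 10% of their own list, 5 of them at Prrx1 and 2 at Col1a1. Their median fold was 4.79, against 5.14 over all peaks of the 4 induced lists. The 15 induced peaks in regions not singled out by the naming rule had folds of 3.52 to 6.18 and summits of 5 to 21 fragments, and none was in the strongest 10%.

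The 3 regions with a peak in all 4 induced lists differed in direction between the treatments when summits were set over the library mean. Both Prrx1 regions were higher in both +Myf6+F/R/C libraries than in both +Myf6 libraries, as were 11.7% of the 10625 such regions over the genome. The Col1a1 region was lower, at 22.6 and 14.2 times the mean in +Myf6+F/R/C and 26.3 and 40.6 times in +Myf6, as were 27.2% of such regions. No test was made of these differences, since 2 libraries stand against 2.

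**Figure D3:**
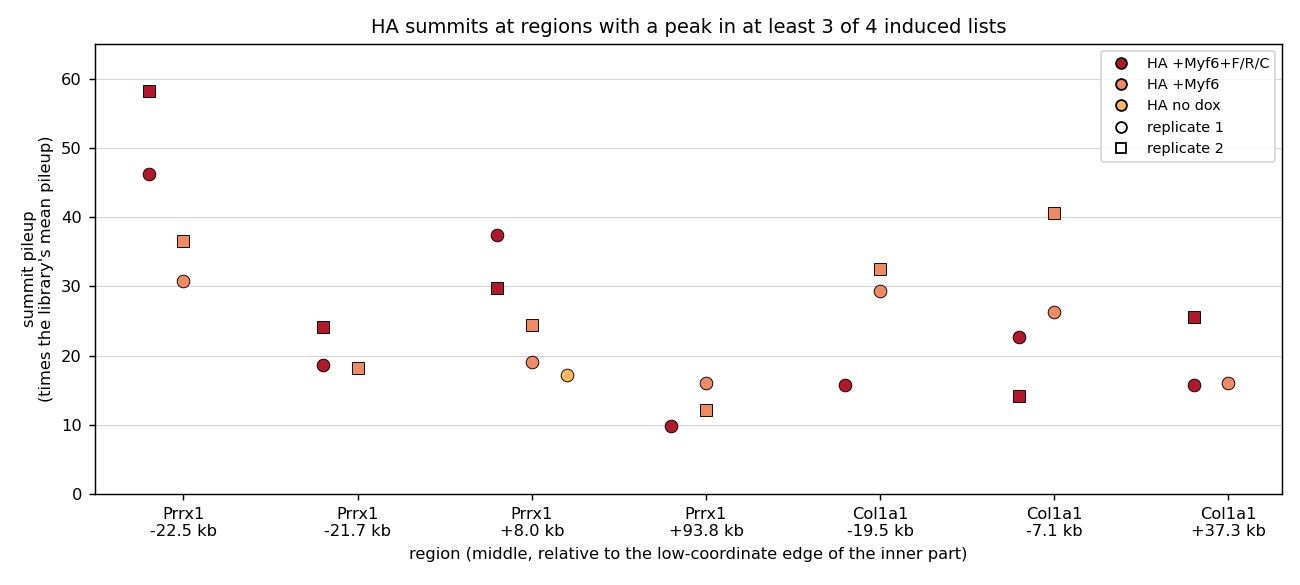
Summit pileup over the library's mean pileup (vertical axis) for each HA library with a peak, at the 7 regions with a peak in at least 3 of the 4 induced lists, placed by distance in kb from the low-coordinate edge of the inner part. The Prrx1 site at -22.5 kb stands at 46.3 and 58.2 times the mean in +Myf6+F/R/C and at 30.7 and 36.6 times in +Myf6, and a no dox peak is present at 1 region.

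H3K27me3 was called at or near the start of all 3 genes in the +Myf6+F/R/C library. Each window had 5 H3K27me3 peaks, against tile medians of 0 at Twist1, 1 at Prrx1 and 0 at Col1a1, and 7.88%, 17.1% and 9.74% of tiles held at least as many. With 1 library there is no replicate error, and no library of another treatment shows whether the mark differed. The peaks belong to the mixture of cells in that culture, so a low level in all cells and a high level in some cannot be told apart.

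At Twist1 the peaks chr12:34006748-34007312 and chr12:34008384-34010370 covered much of the inner part and its low edge. The stretch between these peaks had no call, and the start of the gene could lie in it. The peaks held 68 and 99 fragments at the summit, and the 10 kb around them held 35.4 and 39.7 times the library's mean fragment density. Only 160 and 98 of the 32981 H3K27me3 peaks were in surroundings at least as dense, which is the densest 0.485% and 0.297%. The mark also reached beyond the gene, with peaks at 12 and 9.85 times the mean near chr12:34016755-34017883.

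At Prrx1 the peaks chr1:163137592-163140124 and chr1:163140444-163141208 lay within 5 kb of the high edge, where the gene begins. Their summits held 100 and 94 fragments and their surroundings 44.9 and 42.2 times the mean, the densest 0.0940% and 0.188% of the list, or 31 and 62 peaks. The other 3 Prrx1 peaks had 5.84 times the mean at most.

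At Col1a1 the peak chr11:94826877-94829050 spanned the low edge, where the gene begins. It held 63 fragments and lay at 13.1 times the mean, the densest 13.7% of the list. A longer peak at chr11:94881584-94884508, beyond the high edge, held 73 fragments at 24.9 times the mean, the densest 2.23%. Of the 3 starts, that of Col1a1 thus had the least dense mark, though all were above the list's median of 2.14 times.

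The folds of these dense peaks were low, at 2.11 and 2.74 for the Twist1 start and 2.45 and 2.45 for the Prrx1 start, against 5.04 for the Col1a1 start and a list median of 5.31. A fold is taken against the 10 kb around the summit, so a mark that fills those 10 kb has a high pileup and a low fold. Ranking by fold would place the Twist1 and Prrx1 starts among the weakest peaks of the list, and ranking by local density places them among the densest.

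HA peaks of induced cells met H3K27me3 peaks in 9 of 28 regions (32.1%, against 26.7% of such regions and 26.1% of all regions over the genome), 3 in each window. At Twist1 that was 3 of 4 regions and at Col1a1 3 of 9. At Prrx1 it was 3 of 15, of which 2 lay near the start of the gene. The region chr1:163138873-163139077 had a fold of 3.18 and 11 fragments in the first +Myf6+F/R/C library. The region chr1:163141094-163141522 had 4.39 and 16 in the second +Myf6+F/R/C library and 3.73 and 10 in the second +Myf6 library. Some of the H3K27me3 peaks met were in surroundings under the list's median density of 2.14 times the library mean. They stood at 1.12 times at Twist1, 1.00 at Prrx1, and 1.34 and 1.73 at Col1a1. The other H3K27me3 peaks met stood at 9.85 to 44.9 times.

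Around the HA peaks near the starts of the genes, the 10 kb density at Prrx1 was 2.73 and 4.08 times the library mean in +Myf6+F/R/C and 3.96 times in +Myf6. At Twist1 it was 2.40 times in +Myf6. The remaining overlaps at Col1a1 were chr11:94869818-94870414, with folds of 6.02 in the first +Myf6+F/R/C library and 4.47 in the first +Myf6 library, and chr11:94883942-94884102, with 5.20 in the second +Myf6 library. The strong Prrx1 site 22.5 kb past the gene was 11970 bp from the nearest H3K27me3 peak.

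**Figure D4:**
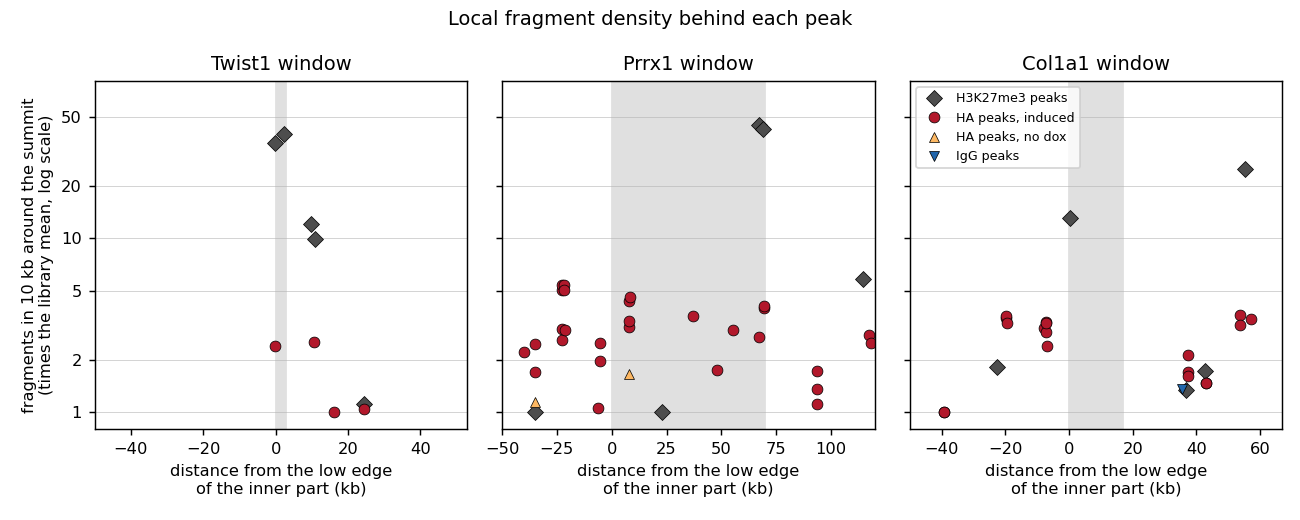
Fragments in the 10 kb around each summit over the library mean (vertical axis, log scale) against distance from the low edge of the inner part (grey) in kb, for the peaks of the 3 windows; the expected level is never set below the mean, so a value of 1 stands for the mean or less. The H3K27me3 peaks near the starts of Twist1 and Prrx1 lie at 35.4 to 44.9 times the mean, and no HA peak lies above 5.38 times.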

How the data were processed

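HA, IgG and H3K27me3 CUT&RUN was read out in 13 libraries, 1 deposited list of narrow peaks each, so replicates were not pooled. Per the submitters' processing notes, MACS2, deepTools and DiffBind were used on build GRCm39. Neither their versions nor an aligner is given in the sources used here. As deposited by the authors, each line held an interval, its summit position, a fold enrichment (a ratio to the local background), −log10 p-values and −log10 q-values, and a score that was not used. The labels' protocols give 500000 cells per reaction and a Drosophila spike-in, which was not used here.

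Summit pileups and expected pileups were recovered from the deposited fold and −log10 p to within 0.002. Mean pileup was taken as the lowest expected pileup of a list, and fragment number as that pileup over a fragment length. The length was not measured but taken as the width of the narrowest peak in each list. The recovery of pileups was tested on simulated data. Those had lower expected pileups than the H3K27me3 peaks at the Twist1 and Prrx1 starts, which stood at 31.7 to 40.3. In the H3K27me3 list itself, 100% of peaks were recovered to that tolerance. Peaks on chromosomes 1 to 19, X and Y were kept, and the 12 HA and IgG lists were merged where at least 1 bp was shared. The inner part is the window less 50 kb at each end. Local density counts fragments in 10 kb. For scaling, summit pileups were multiplied by the ratio of mean pileups (fragment number times length) or, added after seeing the data, by the ratio of fragment numbers, rounded to whole fragments and kept where a peak would still reach the smallest −log10 p present in the shallower list.

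Numbers of peaks per library were compared by exact two-sided permutation tests, adjusted over 15 tests of single windows. No p is given for the sum of the 3 windows. The members, windows and lists were chosen with earlier results of these data known. Regions were named if they had a peak in at least 3 induced lists, in a no dox HA list or in an IgG list, or met an H3K27me3 peak. The region at chr11:94880495-94880843 and the Twist1 region of +Myf6+F/R/C fell outside that rule and were named after their values were seen. Summit sequences, genes with a like pattern, lists of other fibroblast and muscle genes and the assignment of regions to neighbours were not analysed here, since the annotation at hand is GRCm38.p6. A Col1a1 promoter sequence was not used here.

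Per the labels' protocols, the nuclei of a replicate were split between HA and IgG, which pairs those libraries. Over regions, replicate 1 minus replicate 2 (peak present or not) correlated between HA and IgG with r = 0.0145 in +Myf6+F/R/C, -0.00588 in +Myf6 and -0.0658 in no dox. The H3K27me3 library is titled replicate 1, but its library name shares its prefix with the second replicate of +Myf6+F/R/C. Python 3.11.15, numpy 2.4.6, pandas 2.3.3, scipy 1.17.1 and matplotlib 3.10.9 were used. Alternatives were stricter −log10 q, windows with 25 or 100 kb on each side, summits in place of intervals, joining by summits within 200 bp, IgG lists as the only controls, scaling to equal mean pileup or equal fragment number, leaving out each library, and the replicate block.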

Additional observations from a re-analysis of the deposited data

How the results depend on the processing

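The excess of HA peaks in induced over no dox cells kept its direction in every alternative run for the 3 windows together, at 2.5 to 18 peaks for +Myf6+F/R/C and 1.5 to 17.5 for +Myf6. At Twist1 alone it was 0 for both at a −log10 q of 5 and 10, and for +Myf6+F/R/C also under both scalings and without its first library. The difference of -1 peak between +Myf6+F/R/C and +Myf6 became 0 at a −log10 q of at least 5, reversed to 1 at 10 and to 0.5 with 100 kb on each side, and ran from -2 to 0 without single libraries, 0 without the second library of either group. The difference of 12.25 between HA and IgG in induced cells fell to 1.5 after scaling by mean pileup and 1.75 by fragment number, and ran from 11.75 to 12.75 without single libraries. The replicate block, which pairs HA and IgG of the same nuclei, cannot change a difference of means, so 12.25 stayed by construction. The same holds for the differences of 11 and 12 for the induced groups against no dox, and of -1 and 1 for the others. What the block changes is the p, given above for HA against IgG at Prrx1 and Col1a1. Across treatments the libraries share only a number, and same-numbered HA libraries correlated in their deviations with r = 0.114 between +Myf6+F/R/C and +Myf6, 0.0248 between +Myf6+F/R/C and no dox and 0.00103 between +Myf6 and no dox. In no dox, HA minus IgG was 1, but 0 at a −log10 q of 5 or 10, after scaling by mean pileup and without the first HA library, and 2 without the second. Regions in all 4 induced lists and no uninduced HA list numbered 1 at a −log10 q of 5, in all lists or the induced ones alone, and 2 to 4 without single libraries, 4 without the second HA library of +Myf6+F/R/C. Sites of +Myf6+F/R/C numbered 3 at a −log10 q of 5 in all lists, 2 in the induced lists alone, 8 with 100 kb and 5 to 11 without single libraries (10 without the first and 11 without the second of its own). Sites of +Myf6 numbered 7 with 100 kb and 4 to 13 without single libraries (13 and 10 without its first and second). Regions that met H3K27me3 numbered 3 and 4 at those 2 settings of q, 16 with 100 kb and 5 to 9 without single libraries, 5 without the second +Myf6 library. The causes of these changes were not tested. When 1 list of a group is left out, a site needs only 1 list, by construction. The lists hold no value where no peak was called, so a missing peak gives no level, and with 2 libraries a group no exact permutation test between treatments could pass 0.05.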
